A study of Mus musculus with 6 samples.

Results

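The EGF receptor family and its ligands were followed in mouse ear skin after deletion of Vegfr2 from endothelial cells. The genes were taken by symbol from the read-count table: the receptors Egfr, Erbb2 and Erbb3 and the ligands Areg, Ereg, Epgn, Hbegf, Tgfa and Btc, 9 of the 18422 genes in the table, and all 9 were found. The 6 libraries were poly(A) RNA sequencing of ear skin at postnatal day 21. Of these, 3 were from Vegfr2ecko mice (ecko, genotype endothelial knockout of Vegfr2) and 3 from littermate controls. Control and ecko mice had both been given tamoxifen, which switches on the deletion. The series lists schedules starting at postnatal day 1 (60 μg per day) or day 10 (200 μg per day), and the sources used here do not say which of them applied, nor the strain or the Cre line. The labels name no animals, and the p-values therefore speak of the spread among these 6 samples.

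The family works as a relay at the cell surface. The ligands are made as precursors anchored in the membrane, cut free by ADAM proteases, and bind receptor tyrosine kinases that pair up and signal mainly through the Ras-ERK and PI3K pathways. Erbb2 has no known ligand of its own and serves as a partner for the others, and Erbb3 has a weak kinase and binds neuregulins. In skin the EGF receptor is best known from basal keratinocytes and the hair follicle, where its ligands drive keratinocyte growth and wound closure and shape the hair.

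What makes these ligands one family is the EGF-like module, a short stretch held together by 6 cysteines. The coding sequence of that module is shown for 5 ligands because it is the feature they share beyond their name and the one by which they bind the receptor. Each stretch is 108 bases (36 codons) read from the GENCODE M21 transcript (GRCm38), 5′ to 3′ on the coding strand, with the 6 cysteine codons in capitals. The module of Hbegf is not shown.
Ereg: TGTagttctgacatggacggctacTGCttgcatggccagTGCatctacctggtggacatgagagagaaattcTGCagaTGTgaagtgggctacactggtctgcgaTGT
Areg: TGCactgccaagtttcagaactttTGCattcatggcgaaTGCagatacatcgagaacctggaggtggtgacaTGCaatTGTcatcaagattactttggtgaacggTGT
Epgn: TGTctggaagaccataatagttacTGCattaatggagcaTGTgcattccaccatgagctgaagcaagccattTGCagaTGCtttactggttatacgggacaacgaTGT
Btc: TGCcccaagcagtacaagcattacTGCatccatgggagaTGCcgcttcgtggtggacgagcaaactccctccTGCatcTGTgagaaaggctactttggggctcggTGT
Tgfa: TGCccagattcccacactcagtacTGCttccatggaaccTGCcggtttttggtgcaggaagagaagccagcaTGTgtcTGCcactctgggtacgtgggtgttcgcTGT
In all 5 the codons between successive cysteines numbered 7, 4, 10, 1 and 8. The search that located the stretches required the 6 cysteine codons and the gaps of 7, 1 and 8. Only the gaps of 4 and 10 could vary, within set limits. Outside the cysteine codons 15 of 90 bases were the same in all 5. Position by position, the pairs had 45.4% (Ereg and Tgfa) to 62.0% (Tgfa and Btc) of their bases in common. In all 5 the stretch also began in exon 3 of its transcript and ended in exon 4. It lay at chr5:91088496-91089111 in Ereg, chr5:91143614-91144364 in Areg, chr5:91031152-91032237 in Epgn and chr6:86263200-86269960 in Tgfa, each on the plus strand, and at chr5:91362421-91366197 on the minus strand in Btc, introns included.

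Epgn, Ereg, Areg and Btc are neighbours on chromosome 5. In GRCm38.p6 these 4 genes lie within 375 kb, from 91027517 to 91402994, at 15.05 to 15.38 Mb from Kdr, the gene of VEGFR2 (5, 75932827 to 75979072). The neighbours did not share one pattern across the libraries, as the values below show. Tgfa lies on chromosome 6 (86195038 to 86275744), Hbegf on 18 (36504927 to 36515805), Erbb3 on 10 (128567523 to 128589635) and Egfr and Erbb2 on 11 (16752203 to 16913907 and 98412484 to 98437716). Whether the counting used strand is not known from the sources used here. The antisense transcript Gm19610, which is not among the genes counted, covers 152 exonic bases of Ereg, so reads there could belong to either gene. Overlaps in exons were otherwise 118 bases in Tgfa and 9 in Erbb2.

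Libraries held 17255419 to 18054700 counts, and the targeted gene behaved as labelled. Kdr stood at 27.4, 29.1 and 33.7 CPM (counts scaled to a common library total by TMM) in controls and at 3.36, 2.05 and 2.35 in ecko (log2 fold change -3.54, SE 0.17, edgeR quasi-likelihood adjusted p = 2.68e-05). Of 14866 genes tested, 262 passed at an adjusted p under 0.05, which is 1.76%. Y-linked reads marked the third library of each group as female (24 and 36 reads, against 3712 to 4390 in the other 4), so sex was balanced between groups. Keratinocyte markers were abundant, with a summed level of 10587 to 12137 CPM for 8 basal genes such as Krt5 and Krt14 in controls and 11229 to 11656 in ecko, and 8 of 10 endothelial markers fell. In whole skin, fewer cells of a type and less RNA per cell cannot be told apart.

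By transcript number, skin at this age held mostly Btc among the ligands and Erbb3 and Erbb2 among the receptors. Levels were divided by the length of the longest coding transcript to compare genes, and are given as CPM per kilobase in controls (mean ± SD, n = 3). Btc stood at 39.2 ± 8.87, Erbb3 at 23.2 ± 1.10 and Erbb2 at 22.8 ± 2.10. Ereg followed at 9.45 ± 0.990, Tgfa at 9.25 ± 1.13, Egfr at 7.25 ± 0.238 and Hbegf at 4.29 ± 0.827. Epgn at 1.63 ± 0.0757 and Areg at 1.03 ± 0.241 were the lowest. The ranges of Erbb3 and Erbb2, and those of Ereg and Tgfa, overlapped in controls, so these pairs had no order there, while in ecko no neighbours in the order overlapped. Over all annotated exons in place of that transcript, Egfr came out just above Tgfa. With that length the range of Btc overlapped those of Erbb3 and Erbb2 in both groups. In ecko the mean of Erbb3 (27.6 CPM per kilobase) was then above that of Btc (24.7). Btc therefore stood clear of these receptors only by transcript length. Among related genes outside the 9, by transcript length, the neuregulin genes Nrg4 (3.68 ± 0.844) and Nrg2 (2.16 ± 0.444) lay between Hbegf and Epgn. Over all annotated exons Nrg4 (1.17) was below Epgn (1.59) in controls. By transcript length Nrg1 (1.03 ± 0.245), Egf (0.940 ± 0.114) and the receptor gene Erbb4 (0.137 ± 0.0102) were at or below Areg. Nrg3 had no reads in controls.

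No gene of the 9 passed the edgeR test over all genes, where 0.686% of genes were called higher and 1.08% lower in ecko. All 9 were counted deeply enough to be tested. An unadjusted p under 0.05 was found for 4 of the 9 (Egfr, Erbb3, Ereg and Hbegf, all higher in ecko), against 15.4% of all genes tested. The ranges of the 2 genotypes were apart for 3 of the 9 (Egfr, Erbb3 and Ereg, all higher). Over all genes they were apart and higher for 10.2%, and apart in either direction for 21.0%. The median log2 fold change of the 9 was 0.16, with 7 values above 0 and 2 below, and that of all genes tested was 0.00. DESeq2 called 2 of the 9 higher, Ereg and Erbb3, where it called 1.30% of all genes higher.

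**Figure D1:**
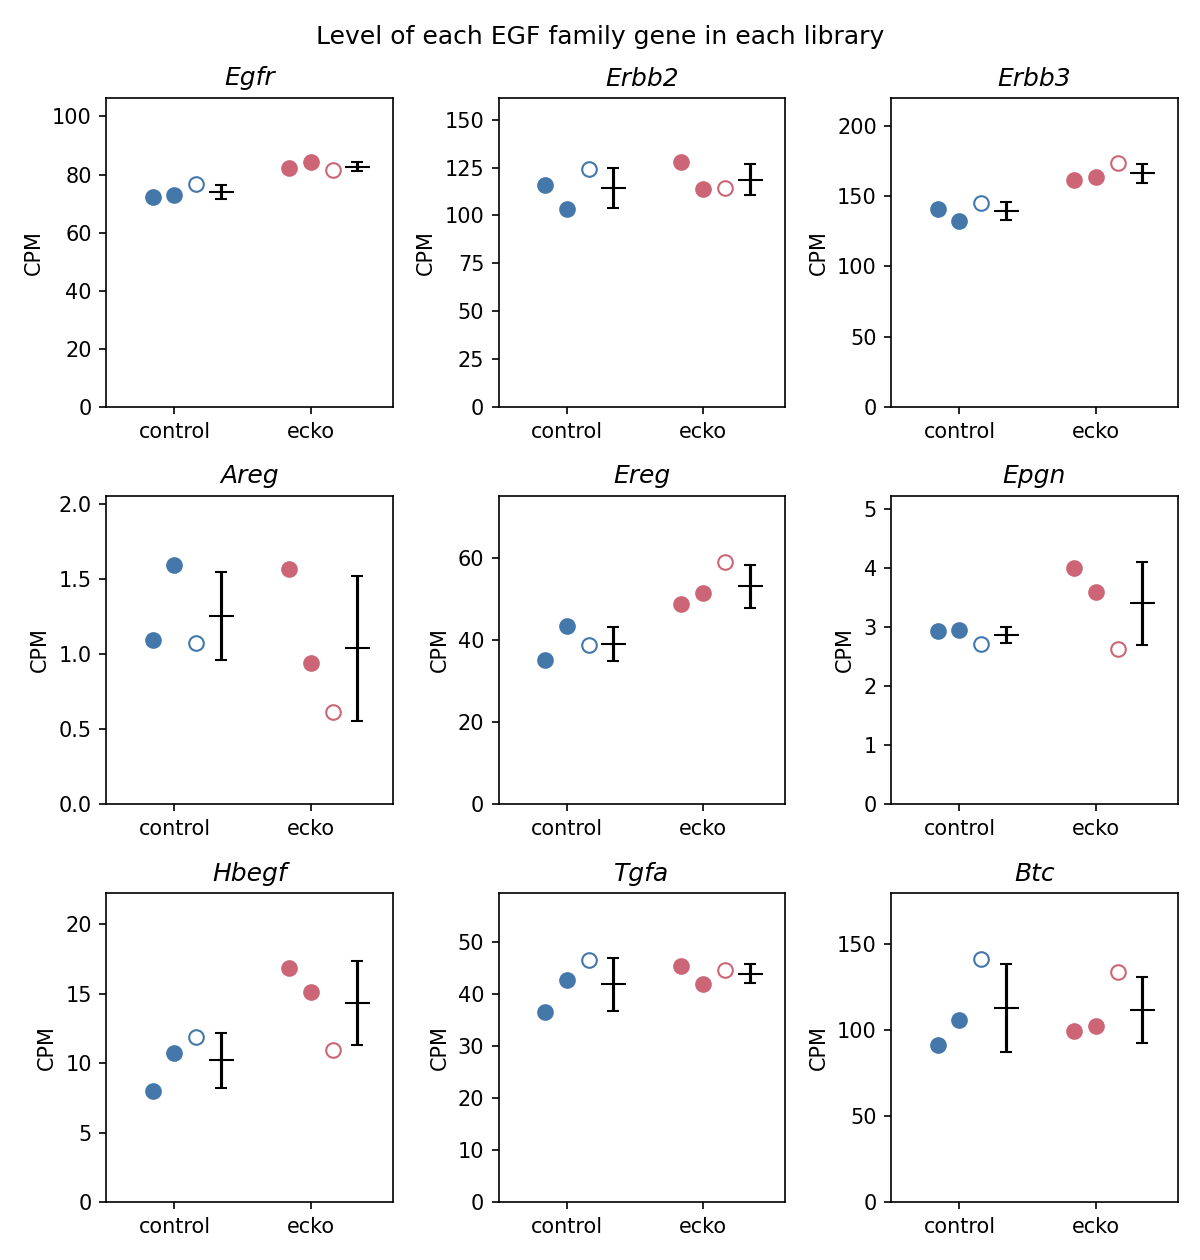
Level of each gene in CPM (vertical axes from 0, scaled by TMM) in the 3 control (blue) and 3 ecko (red) libraries, with filled points for male and open points for female pups and black bars for mean ± SD (n = 3). The groups do not overlap for Egfr, Erbb3 and Ereg, and the female libraries are the highest of their groups for Btc and Erbb3.

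Among the receptors, Erbb3 had the smallest p. Its level was 141, 132 and 145 CPM in controls and 161, 163 and 174 CPM in ecko. Every ecko library was above every control, and the distance between the groups was wider than the spread inside either of them. The means were 139 ± 6.61 and 166 ± 6.69 CPM (SD, n = 3 each), a log2 fold change of 0.25 (SE 0.06, 95% interval 0.12 to 0.39). With edgeR its adjusted p was 0.0784. DESeq2 put the adjusted p at 0.0298, and in the 13 other alternatives tried Erbb3 did not pass. Erbb3 is also the neuregulin receptor of melanocytes and Schwann cells. The summed level of 6 melanocyte markers, none at 0, was 142 to 155 CPM in controls and 166 to 208 CPM in ecko, with 0 of the 6 passing (edgeR). That of 6 Schwann cell markers was 879 to 982 and 872 to 956 CPM, with 0 of the 6 passing. The part of either cell type in the Erbb3 values was not tested.

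Egfr, the receptor that all 6 ligands bind, differed by less. It was at 72.3, 73.0 and 76.8 CPM in controls and 82.2, 84.4 and 81.6 CPM in ecko. The groups were apart, by slightly more than the range inside the controls and more than that inside ecko. The log2 fold change was 0.16 (SE 0.06, 95% interval 0.04 to 0.28, edgeR adjusted p = 0.210), and it lay between 0.14 and 0.20 in all 14 alternatives. Markers of basal keratinocytes, the cells in which the receptor is best known, overlapped between groups in their summed level, and 0 of the 8 passed. By gene, 2 of the 8 had every ecko library above every control, Trp63 (log2 fold change 0.32) and Itga6 (0.12), against 10.2% of all genes. None of the 8 was apart and lower. The summed level of 10 differentiated keratinocyte markers did not overlap (21826 to 24450 CPM in controls and 24845 to 27680 CPM in ecko). Of these genes, 2 of 10 rose. By gene, 3 of the 10 (Krt1, Krt10 and Casp14) had every ecko library above every control, the rest overlapped, and Lor was below 0 (-0.19). The part of basal or differentiated keratinocytes in the Egfr values was not tested.

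Erbb2, the partner receptor, was at 116, 103 and 124 CPM in controls and 128, 114 and 115 CPM in ecko. The groups overlapped, although the first ecko library was above every control and the second control was below every ecko library. The log2 fold change was 0.05 (SE 0.08, edgeR adjusted p = 0.820), and its 95% interval of -0.12 to 0.23 leaves room for a change of that size in either direction.

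**Figure D2:**
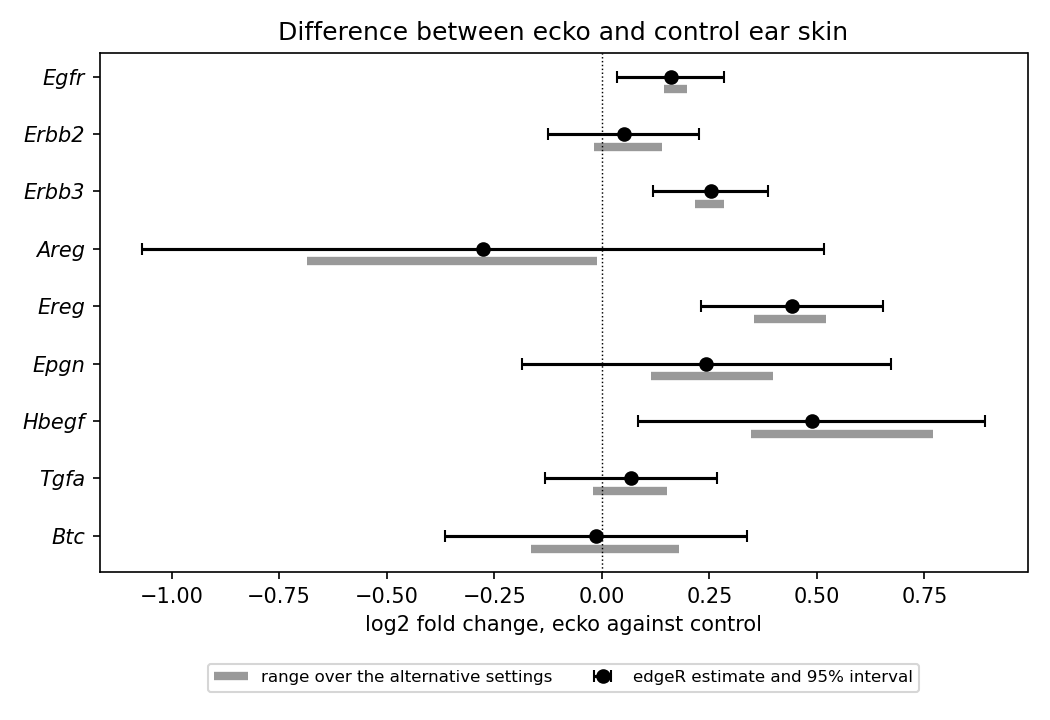
Log2 fold change of ecko against control for each gene (black point) with its 95% interval (black line) from the edgeR fit, and the range over the 14 alternative settings (grey bar). The intervals of Egfr, Erbb3, Ereg and Hbegf lie above 0 before adjustment for the number of genes, and those of the other 5 include 0.

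Ereg, which encodes epiregulin, a ligand of EGFR and ErbB4 made by keratinocytes and other cells during repair, came nearest to the threshold. Its level was 35.1, 43.3 and 38.7 CPM in controls and 48.7, 51.4 and 58.9 CPM in ecko. All 3 ecko libraries were above all 3 controls. The means were 39.0 ± 4.09 and 53.0 ± 5.26 CPM (SD, n = 3 each), and ecko stood at 1.36 times control (95% interval 1.17 to 1.57). The log2 fold change was 0.44 (SE 0.09, edgeR adjusted p = 0.0528). Ereg passed with DESeq2 (adjusted p = 0.00384), without a filter on low counts (0.0397, where 0.659% of all genes were called higher) and with the replicate number as a block (0.0498, where 0.424% were). It did not pass in the 11 others, up to an edgeR adjusted p of 0.205 in the male libraries alone, where the log2 fold change was 0.35.

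Hbegf, the gene of heparin-binding EGF-like growth factor, a ligand induced early in wounds, had the largest difference of the 9 but the groups overlapped. It was at 8.02, 10.7 and 11.9 CPM in controls and 16.9, 15.1 and 10.96 CPM in ecko. The first and second ecko libraries were above every control, and the third lay within the control range. The log2 fold change was 0.49 (SE 0.18, 95% interval 0.08 to 0.89, edgeR adjusted p = 0.240). In the 4 male libraries it was 0.77 (SE 0.16, edgeR adjusted p = 0.0824), and no test of a difference between the sexes was made.

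Epgn, the gene of epigen, had the same order of ecko libraries as Hbegf, at 2.94, 2.96 and 2.72 CPM in controls and 3.998, 3.60 and 2.63 CPM in ecko. Again only the first and second ecko libraries were above the controls (log2 fold change 0.24, SE 0.19, edgeR adjusted p = 0.616). These values rest on 47 to 69 reads per library. The summed level of 12 markers of stressed keratinocytes, Krt17 and Krt6a foremost, was 591 to 653 CPM in controls and 995, 1048 and 691 CPM in ecko 1 to 3. The sum was highest in the second ecko library and was above every control in the third as well. By gene, 6 of the 11 tested had every ecko library above every control. For the rest, Krt17 among them, ecko 3 was not above every control, as for Hbegf and Epgn. Krt17 was at 292 CPM in ecko 3 and at 306, 281 and 323 CPM in controls. Of the 11 tested, 4 rose, and Defb4 was at or near 0 throughout. The part of these cells in the Hbegf and Epgn values was not tested.

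Btc, the gene of betacellulin, was level between genotypes and uneven within them. It was at 91.5, 106 and 141 CPM in controls and 99.3, 102 and 134 CPM in ecko. In both groups the third library, from the female pup, was the highest, and the other 4 libraries stayed between 91.5 and 106 CPM. The log2 fold change was -0.01 (SE 0.16, 95% interval -0.37 to 0.34, edgeR adjusted p = 0.982). With a term for sex the value was also -0.01, with a smaller SE of 0.07. With 1 female library a group, sex and the individual pup cannot be told apart.

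Tgfa, the gene of transforming growth factor alpha, was at 36.4, 42.7 and 46.6 CPM in controls and 45.3, 41.9 and 44.5 CPM in ecko. The ecko libraries fell inside the control range (log2 fold change 0.07, SE 0.09, 95% interval -0.13 to 0.27, edgeR adjusted p = 0.786). Areg, the gene of amphiregulin, had 19, 28 and 19 reads in controls and 27, 17 and 11 in ecko, which is 0.615 to 1.59 CPM. A difference was not detectable at this depth, since the 95% interval of the ratio ran from 0.476 to 1.43 (edgeR adjusted p = 0.782).

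As a share of the summed level of the 6 ligands per kilobase of transcript, Btc made up 57.3% to 64.4% in controls and 51.5% to 60.3% in ecko. Ereg made up 12.3% to 16.3% in controls and 17.6% to 18.8% in ecko. The shares of Ereg did not overlap between groups, and those of the other 5 ligands did. With lengths over all annotated exons, Btc stood at 51.3% to 59.3% and 46.0% to 53.9%, and Ereg at 17.8% to 23.0% and 24.7% to 26.3%. The summed level of all 6 ligands was 64.9 ± 10.9 CPM per kilobase in controls and 70.2 ± 6.11 in ecko (SD, n = 3 each), and the 2 ranges overlapped.

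**Figure D3:**
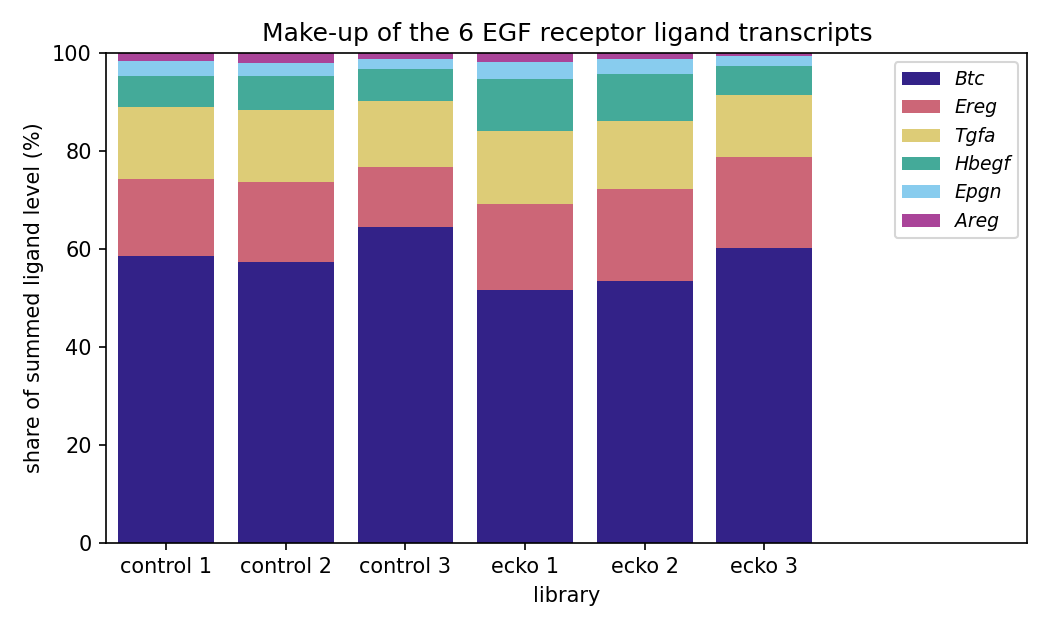
Share of each ligand (colours) in the summed level of the 6 ligands per kilobase of the longest coding transcript, in percent, for each of the 6 libraries. Btc is the largest part in every library, and the Ereg part is at 12.3% to 16.3% in controls and 17.6% to 18.8% in ecko.

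The genes whose levels ran closest to Ereg over the 6 libraries were Zfp729a (Pearson r = 0.995, on log2(CPM + 1)), Dhx40 (r = 0.994) and Ccbe1 (r = 0.988), the last a secreted protein gene known for its part in lymphatic growth. They were the closest of 13862 genes compared. The 6 points share 2 genotype groups, and Zfp729a belongs to a family of near-identical zinc finger genes, so its count is uncertain. Among the 9 genes themselves the closest pair was Egfr and Erbb3 (r = 0.90), followed by Ereg and Erbb3 (r = 0.82), while Epgn and Btc, and likewise Erbb3 and Areg, ran opposite (r = -0.63 for each pair).

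The rest of the pathway was read from 82 further genes in 6 lists, of which 81 were counted deeply enough to be tested. With edgeR 0 of the 81 passed in either direction, and 14 had an unadjusted p under 0.05, against 15.4% of all genes. DESeq2 also called 0. Their median log2 fold change was 0.04, with 50 above 0 and 31 below. Other receptors and ligands all had values below 0 (5 of 5 tested), with Egf at 4.48 ± 0.541 and 3.59 ± 0.324 CPM in control and ecko (log2 fold change -0.32, SE 0.16, edgeR adjusted p = 0.381), Erbb4 at -0.38 and Nrg2 at -0.15. None of the 10 genes of ligand shedding passed. Adam17 and Adam10, which encode the main sheddases of these ligands, were at 0.04 and 0.00, with 85.6 ± 4.40 and 100.4 ± 2.03 CPM in controls, and Adam9, Rhbdf1 and Adam12 were at 0.15, -0.10 and 0.12.

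Receptor inhibitors and turnover genes numbered 14, and 12 had values above 0 (median 0.08). The phosphatase gene Ptprj was at 0.22 (SE 0.09, edgeR adjusted p = 0.278), the adaptor gene Sh3kbp1 at 0.15 and the ubiquitin ligase gene Cblb at 0.20. Errfi1 and Lrig1, which encode feedback inhibitors of the receptors, were at -0.03 and 0.02. Of 18 adaptor and Ras-MAPK genes, 9 were above and 9 below 0. The kinase gene Braf was at 0.19 (SE 0.07), and Map2k2 and Mapk3, which encode MEK2 and ERK1, were at -0.18 (SE 0.07) and -0.13 (SE 0.06). These 3 had groups that did not overlap and edgeR adjusted p of 0.246, 0.257 and 0.295. Of 12 PI3K, PLC and STAT genes, Pik3cb was at 0.28 (SE 0.10, edgeR adjusted p = 0.247), Stat3 at 0.16 and Pik3ca at 0.09.

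The 22 ERK feedback and response genes had 18 values above 0, a median of 0.12 and 7 unadjusted p under 0.05, all of them higher in ecko. Over all genes tested, 7362 values were above 0 and 7502 below, and 15.4% had an unadjusted p under 0.05. The transcription factor gene Egr1, an immediate early gene, was at 49.9, 82.2 and 85.2 CPM in controls and 304, 161 and 96.0 CPM in ecko. All 3 ecko libraries were above the controls, but they spread over a wider range than the distance between the groups (log2 fold change 1.37, SE 0.36, edgeR adjusted p = 0.108). Dusp5, which encodes an ERK phosphatase, was at 5.37, 7.11 and 8.90 CPM in controls and 11.8, 10.2 and 10.1 CPM in ecko (log2 fold change 0.58, SE 0.17, edgeR adjusted p = 0.143). Junb was at 79.1, 87.5 and 91.3 CPM in controls and 177, 122 and 89.9 CPM in ecko (log2 fold change 0.59, SE 0.19, edgeR adjusted p = 0.190). Fos, named here after its values were seen, was at 211 CPM in ecko 1 and at 19.2 to 53.0 CPM in the other 5 libraries. Egr1, Junb, Fos and Hbegf all had the order ecko 1, ecko 2, ecko 3 from high to low. Epgn and Areg had it too, while Ereg, Erbb3 and Btc had the reverse order. Spry4, a feedback inhibitor gene also named after its values were seen, was lower in every ecko library (log2 fold change -0.25, edgeR adjusted p = 0.338).

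**Figure D4:**
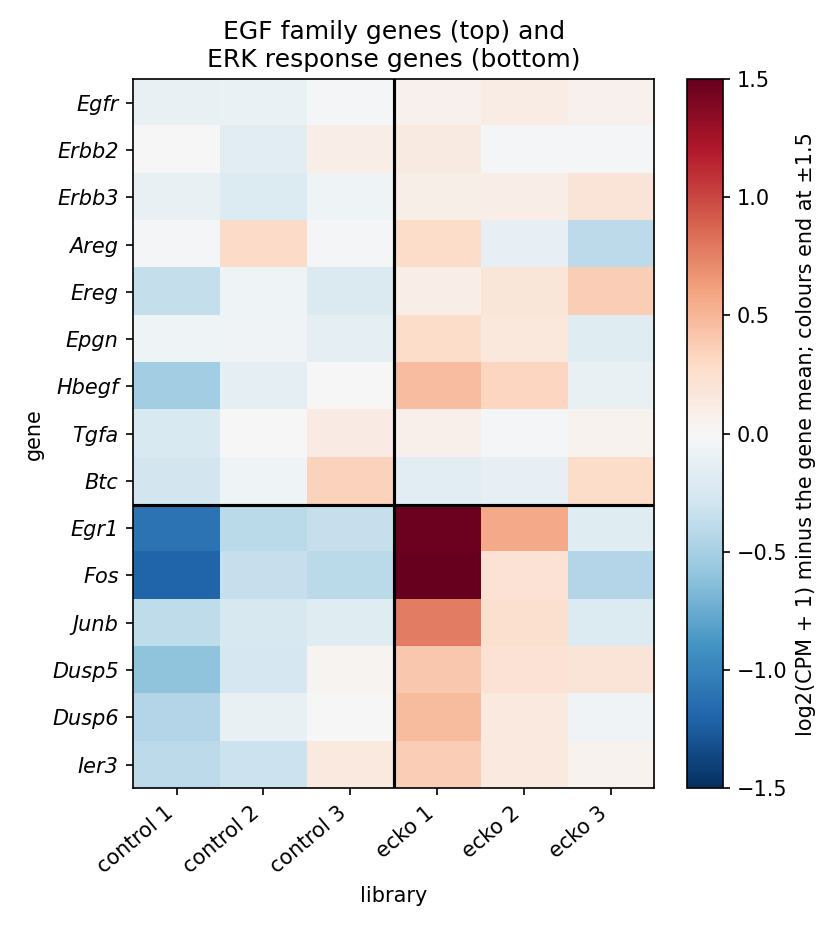
Log2(CPM + 1) minus the mean of each gene (colour, ending at ±1.5) for the 9 EGF family genes (above the line) and 6 ERK response genes (below it) in each library. Egr1 and Fos are highest in ecko 1. Hbegf, Epgn and Areg have the same order of ecko libraries, and Ereg, Erbb3 and Btc have the reverse order.

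Single libraries moved these pathway calls. Without control 3, Pik3cb (log2 fold change 0.41), Ier3 (0.58) and Dusp5 (0.77) rose, with edgeR adjusted p of 0.0221, 0.0311 and 0.0329, where 1.10% of all genes were called higher. Without ecko 3, Egr1 rose (log2 fold change 1.68, edgeR adjusted p = 0.0436), where 0.433% were.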

How the data were processed

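RNA of ear skin for the 3 control and 3 ecko libraries was captured with oligo(dT) beads, fragmented and copied from random primers, per the labels' protocols. The values deposited by the authors are expected counts (estimated read numbers) for each gene before any scaling, and 10.5% of the entries were fractional. Tools listed without roles in the submitters' processing notes are RSEM 1.3.1, Bowtie2 2.4.5 and HISAT2 2.2.1, with the build GRCm38.p6.

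Counts were rounded, and groups came from the titles. filterByExpr (minimum count 10) kept 14866 of 18422 genes. The test was the edgeR quasi-likelihood test (edgeR 4.0.16, R 4.3.3) on all 6 libraries with TMM and genotype as the only term, Benjamini-Hochberg adjustment over all genes tested and a threshold of 0.05. The SE was the log2 fold change over the root of F, and intervals are 95% and not adjusted. The common biological coefficient of variation was 8.80%. Within groups, counts differed by 4.89 to 14.8 times the sampling variance, so no library was a re-sequenced copy of another. Such values cannot show whether the libraries came from separate animals. The fit was tested on simulated data. Alternatives were DESeq2 1.42.0, RLE factors, plain totals, other filters, a replicate block, a sex term (male from 500 Y-linked reads), male libraries only and each library left out. Gene positions came from RefSeq (GRCm38.p6), matched by gene ID for all 9 genes, and transcript lengths and sequences from GENCODE M21. The 9 genes and all lists were chosen with earlier results of these data known. Named were all 9, each pathway gene that passed, the 3 pathway genes of smallest p in each list, and the 3 genes most like the member of smallest p. Others, such as Adam17, Adam10, Errfi1 and Lrig1, were named for their role after values were seen.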

Additional observations from a re-analysis of the deposited data

How the results depend on the processing

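The direction of Egfr, Erbb3, Ereg, Epgn and Hbegf (above 0) and of Areg (below 0) was kept in all 14 alternatives, while Erbb2, Tgfa and Btc, none of which passed in any, changed sign in 2, 1 and 4 of them. The number of the 9 genes called higher was 0 in the main analysis, 2 with DESeq2, 1 without a filter on low counts (Ereg), 1 with the replicate block (Ereg) and 0 in the other 11, and 0 were called lower in every alternative. The pathway lists had 0 to 3 genes called higher over the libraries left out in turn (3 without control 3 and 1 without ecko 3), and 0 in the other alternatives. Over all genes, 102 were called higher and 160 lower, against 193 and 239 with DESeq2, 63 and 129 with the replicate block and 83 and 91 in the male libraries, and 22 to 165 and 34 to 242 over the libraries left out in turn, with the highest counts without control 3 and the lowest without ecko 2. The cause of these differences was not tested. The replicate numbers did not clearly pair the samples: same-numbered deviations correlated at 0.06, 0.01 and 0.19. With 3 libraries a group such values cannot exclude pairs. The value of 0.19 is between the female libraries, where a pair and sex cannot be told apart. Depth limits Areg (11 to 28 reads) and Epgn (47 to 69 reads).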
